A study of Mus musculus with 8 samples.

Results

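The 32 genes described here belong to the unfolded protein response and the integrated stress response, and were taken by symbol from the 38293 Ensembl genes of the count table. They fall into 5 sensors and transcription factors, 16 chaperones and degradation factors of the endoplasmic reticulum (ER), and 11 targets of the transcription factor ATF4. All 32 were found in the table, and 31 passed the filter on low counts, which kept 14567 genes. The gene that did not pass was Fgf21. The samples were 8 ventricles, each a mix of left and right ventricle of mice aged 8 weeks: 4 heterozygous for the Pkp2 deletion c.1755delA (HET) and 4 homozygous for the wild-type allele (WT). The labels name no strain, sex, treatment or line, and they do not say that each sample is a separate animal, so p-values measure the spread between these samples. Pkp2 encodes plakophilin-2, a protein of the desmosome, and the study concerns the degradation of such proteins in arrhythmogenic cardiomyopathy.

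The ER folds secreted and membrane proteins, which in heart muscle include ion channels, receptors and the calcium-binding proteins of the sarcoplasmic reticulum. When unfolded protein builds up there, the sensors IRE1 (gene Ern1), PERK (Eif2ak3) and ATF6 raise chaperones and degradation factors through the transcription factors XBP1 and ATF6, while PERK and other kinases phosphorylate the translation factor eIF2 alpha. That phosphorylation, the integrated stress response, lowers general translation and favours translation of ATF4, which in turn induces genes of amino acid synthesis, redox balance and cell death. Activation of IRE1 is read from splicing of Xbp1, activation of ATF6 from its cleavage, and production of ATF4 protein from translation, none of which counts of reads per gene record.

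Binding sites named for these branches were looked up in the members' promoters, to show what the chaperone branch shares in sequence before its levels are given. Since the sites were picked for these branches, their counts describe the promoters and test nothing. Promoters came from RefSeq (GRCm38.p6, from 250 bases before to 50 bases after the start), which held 29 of the 32 members. The ER stress response element, ERSE, was searched on both strands as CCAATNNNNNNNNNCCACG. It occurred in 7 of 14 promoters of the chaperone branch, in 0 of 11 of the ATF4 target branch and in 0 of 4 of the sensors and factors, against 0.137% of the 27025 genes with a promoter (0.119% of 32851 promoters). The element ERSE-II, ATTGGNCCACG, occurred in 2 members (Herpud1 and Dnajb11) and in 0.0444% of genes. The core of the unfolded protein response element, TGACGTGG, occurred in 0 members and in 0.714% of genes. The ATF4 element, TGATGNAA, occurred in 4 of 11 ATF4 targets (Asns, Chac1, Fgf21 and Trib3), in 1 chaperone-branch gene (Herpud1) and in 4.51% of genes. No matches overlapped each other. Each match that ended at least 5 bases before the start is shown on the gene's strand, with the match in capitals and 5 bases on either side. A match on the opposite strand reads as the reverse complement.
Hspa5, ERSE 65 to 47 bases before the start, chr2:34772020-34772048, plus strand: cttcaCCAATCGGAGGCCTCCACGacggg
Hsp90b1, ERSE 212 to 194 bases before the start, chr10:86705633-86705661, minus strand: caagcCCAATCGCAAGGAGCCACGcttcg
Hsp90b1, opposite ERSE 107 to 89 bases before the start, chr10:86705528-86705556, minus strand: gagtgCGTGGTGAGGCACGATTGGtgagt
Canx, ERSE 145 to 127 bases before the start, chr11:50325795-50325823, minus strand: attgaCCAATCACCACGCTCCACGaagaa
Dnajc3, ERSE 105 to 87 bases before the start, chr14:118937822-118937850, plus strand: cacaaCCAATCAGCGCCAACCACGacccg
Pdia6, ERSE 98 to 80 bases before the start, chr12:17266486-17266514, plus strand: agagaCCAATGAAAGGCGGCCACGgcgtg
Calr, opposite ERSE 162 to 144 bases before the start, chr8:84847070-84847098, minus strand: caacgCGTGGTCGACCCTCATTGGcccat
Creld2, opposite ERSE 126 to 108 bases before the start, chr15:88819515-88819543, plus strand: cttctCGTGGCGAGCCTCAATTGGtccac
Herpud1, ERSE-II 52 to 42 bases before the start, chr8:94386372-94386392, plus strand: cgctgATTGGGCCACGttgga
Herpud1, opposite ATF4 element 112 to 105 bases before the start, chr8:94386312-94386329, plus strand: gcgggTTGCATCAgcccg
Asns, ATF4 element 23 to 16 bases before the start, chr6:7693220-7693237, minus strand: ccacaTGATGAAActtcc
Chac1, opposite ATF4 element 193 to 186 bases before the start, chr2:119351044-119351061, plus strand: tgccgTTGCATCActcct
Fgf21, opposite ATF4 element 139 to 132 bases before the start, chr7:45615617-45615634, minus strand: ccccaTTGCATCAtccgt
Herpud1 was the member that held elements of both kinds, and Trib3 and Dnajb11 held theirs within the first 50 transcribed bases.

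Libraries held 32397302 to 41234883 counts. Pkp2 (chromosome 16, 16213318 to 16272712) was at 88.2 to 106 CPM (counts scaled to a common library size) in HET and 148 to 169 in WT. Its log2 fold change was -0.74 (SE 0.065, Benjamini-Hochberg adjusted p = 0.00376 in the quasi-likelihood fit of edgeR across all genes), so the genotype labels matched the libraries. The tissue label was met by the 10 cardiomyocyte markers, which summed to 96112 to 100576 CPM in HET and 90467 to 97200 in WT, and atrial markers summed to 222 to 466 CPM. A single library, WT replicate 3, differed from the other 7. Its 7 pairs with them had an average chi-square per gene of 54.6 to 85.8, against 14.0 to 40.9 for the other 21 pairs. Its 8 macrophage markers summed to 312 CPM against 201 to 227, its 8 lymphocyte markers to 3.24 against 1.75 to 2.29, its 6 erythroid markers to 495 against 211 to 391, and its mitochondrially encoded share was 14.7% against 17.1% to 19.1%. Its 8 endothelial markers summed to 1343 CPM against 1364 to 1602, and its 8 smooth muscle and pericyte markers averaged -0.20 against -0.06 to 0.14 in log2 CPM centred on each gene's mean. Between genotypes, 48.5% of all genes tested had a positive log2 fold change. Among tested markers, 0 of 8 fibroblast, 1 of 8 macrophage, 8 of 10 cardiomyocyte, 5 of 5 erythroid and 4 of 4 adipocyte markers did. So did 4 of 8 endothelial, 4 of 8 smooth muscle and pericyte, 1 of 4 plasma cell, 1 of 3 lymphocyte and 1 of 3 atrial markers. The medians were -0.071 for fibroblast and 1.594 for adipocyte markers. Fibroblast markers summed to 979 to 1234 CPM in HET and 1049 to 1225 in WT, and adipocyte markers to 253 to 306 and 228 to 297. Lep was at 0 in every library, and the part of these cells in the results was not tested. Members whose value it moves are given with and without this library. In a mixed tissue, fewer cells of a type and less RNA per cell cannot be told apart.

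No member passed the test between genotypes. The call rule, an adjusted p under 0.05, was met by 0 of the 31 members and by 0.00686% of all genes tested (1 gene, Pkp2), and the lowest adjusted p of a member was 0.770. At an unadjusted p under 0.05 by the same test, 4 members were higher in HET (Hspa5, Dnajb9, Canx and Chac1), against 2.75% of all genes, and 2 were lower (Trib3 and Psat1), against 3.63%. With 4 digits in the sample titles that some samples share as a covariate (3 of 4 HET and 1 of 4 WT samples hold the same ones), Chac1 alone of these 6 stayed under 0.05 (unadjusted p = 0.0490 by edgeR), with 0.0989 for Hspa5, 0.154 for Dnajb9, 0.287 for Canx, 0.0836 for Trib3 and 0.0983 for Psat1. The titles also hold a code after the gene name. HET replicates 1 and 2 share such a code, and WT replicates 1 and 2 share another. Its meaning is not given, and no fit used it. The median log2 fold change was 0.127 for the 5 sensors and factors, 0.052 for the 16 chaperone-branch genes and -0.048 for the 10 ATF4 targets tested, beside -0.004 over all genes, and the difference between branches was not tested. Single libraries moved each median: 0.058 for the sensors and 0.015 for the chaperones without WT replicate 2, and -0.001 and -0.149 for the ATF4 targets without HET replicate 4 and HET replicate 3. That of the sensors was 0.010 with the title digits as covariate. Values ran from 0.00 to 0.20 among the chaperones and from -0.61 to 0.66 among the ATF4 targets.

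**Figure D1:**
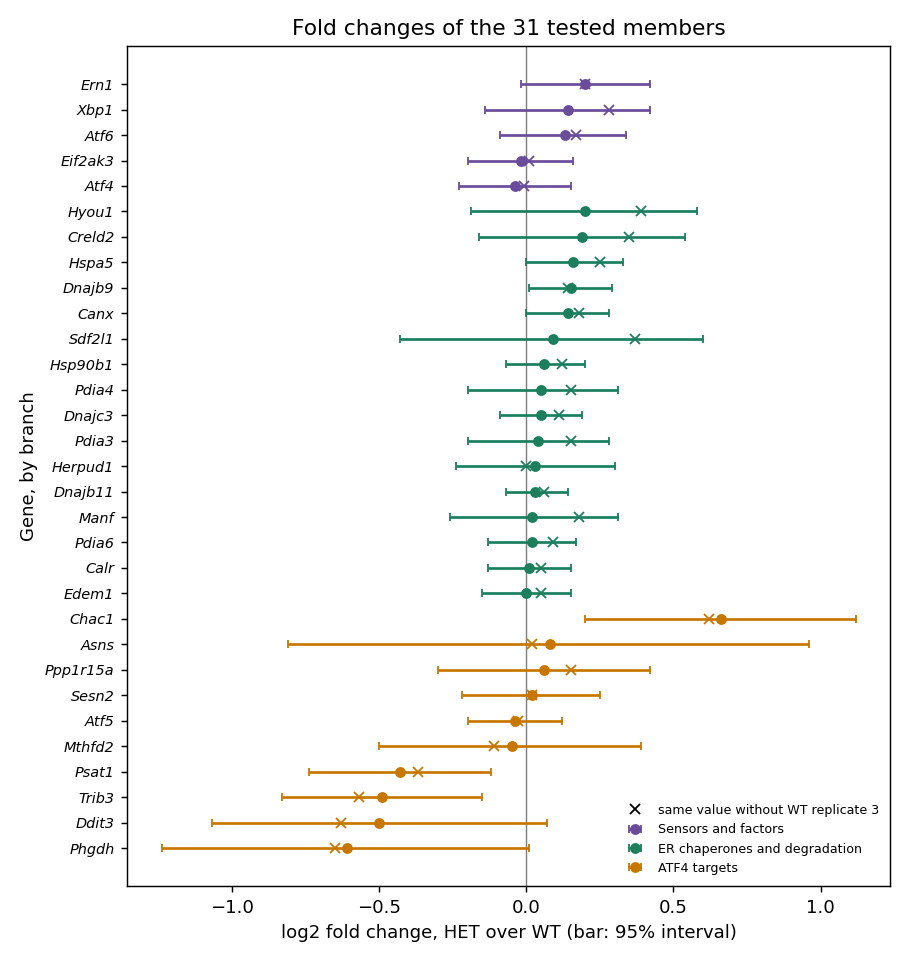
Log2 fold change of HET over WT (x axis) for the 31 tested members (y axis, grouped by branch), with bars for the 95% interval and crosses for the value without WT replicate 3. Chaperone-branch values lie between 0.00 and 0.20 and most crosses lie to the right of them, while the ATF4 targets spread from -0.61 (Phgdh) to 0.66 (Chac1).

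Per length of exon, the highest levels were those of members of the chaperone branch and the lowest those of members of the ATF4 target branch. On the scale of CPM per kilobase of exon, averaged over the 8 libraries, Hspa5 (BiP, the main Hsp70 of the ER) was the most abundant member at 151, followed by the lectin-like calcium-binding chaperone Calr at 107 and the ER Hsp90 gene Hsp90b1 at 85.7. Herpud1, which serves ER-associated degradation, followed at 72.1, the membrane-bound lectin chaperone Canx at 59.0 and the disulfide isomerase Pdia3 at 48.6. Atf4 was at 29.4 and Atf5 at 24.9, more than the other members of their branches. The enzymes of serine and one-carbon metabolism Psat1, Mthfd2 and Phgdh were at 0.694, 0.647 and 0.249. The branch medians were 15.1 for the chaperones, 14.4 for the sensors and factors and 1.42 for the ATF4 targets. Of the 31 pairs of neighbours in this order 6 had ranges over the 8 libraries that did not overlap (Hspa5 above Calr, Calr above Hsp90b1, Pdia3 above Atf4, Edem1 above Eif2ak3, Mthfd2 above Phgdh and Phgdh above Fgf21), and the ranges of the other 25 overlapped. Of these 25, 5 kept their order within all 8 libraries (Canx above Pdia3, Atf5 above Xbp1, Xbp1 above Dnajb11, Chac1 above Ern1 and Eif2ak3 above Sesn2), and the other 20 did not. The median coefficient of variation over the 8 libraries was 8.80% for the chaperones, 11.2% for the sensors and factors and 21.2% for the tested ATF4 targets, beside 9.57% over all genes tested. It pools both genotypes and takes in counting error, which is larger at low counts such as the 11 to 37 reads per library of Phgdh. The part of counting error in the difference between branches was not tested.

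**Figure D2:**
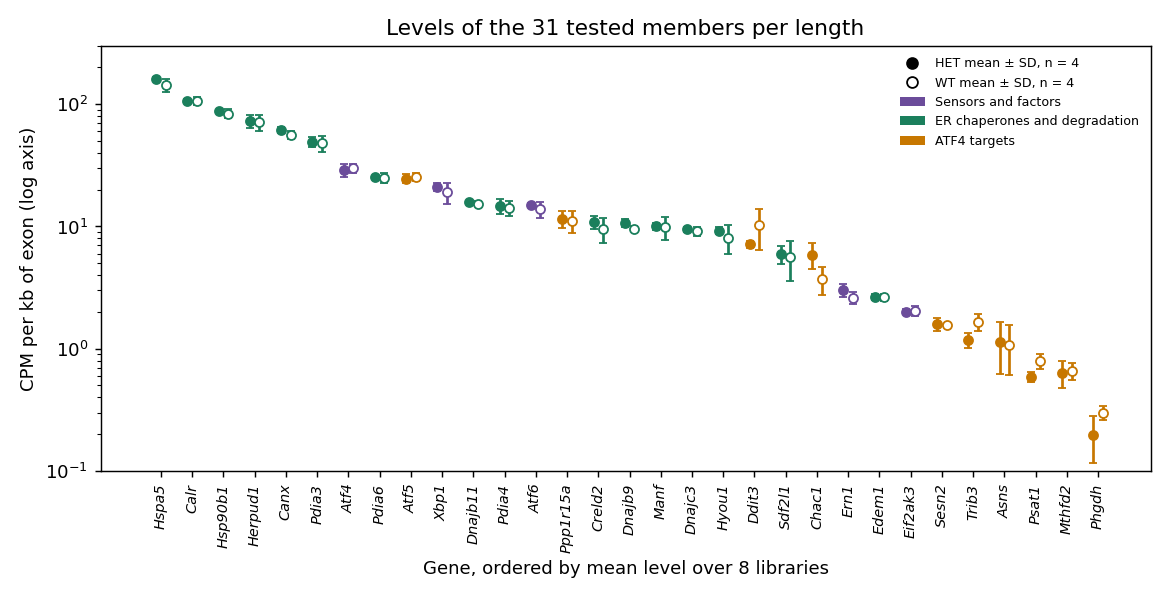
CPM per kilobase of exon (log axis) for the 31 tested members in order of mean level (x axis), filled circles for HET and open circles for WT with bars for the SD of 4 libraries, coloured by branch. Hspa5 stands at the top with 151 averaged over all libraries and Phgdh at the bottom with 0.249.

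Among the sensors and factors, Xbp1, Atf6 and Ern1 had the higher mean in HET, and Eif2ak3 and Atf4 had a slightly lower mean there. Ern1, the IRE1 kinase and endonuclease, was at 22.2, 22, 27.4 and 26.8 CPM in HET and 24.8, 19.0, 21.7 and 20.3 CPM in WT. The groups overlapped, with WT replicate 1 inside the HET range, and the log2 fold change was 0.20 (SE 0.101, 95% interval -0.02 to 0.42). With the title digits as covariate it was 0.05. Xbp1, whose spliced mRNA encodes the factor made after IRE1 activation, was at 60.7, 69.8, 70.7 and 71.4 CPM in HET and 61.5, 50.7, 78.7 and 56.1 CPM in WT. WT replicate 3 was the highest of the 8 libraries for it, and the log2 fold change of 0.14 (SE 0.125) was 0.28 without that library (unadjusted p = 0.00493, adjusted p = 0.586 by edgeR) and 0.06 without WT replicate 2, the lowest library. Atf6 was at 134 to 145 CPM in HET, while WT replicates 1 and 3 stood at 149 and 139 and WT replicates 2 and 4 at 109 and 112 (log2 fold change 0.13, interval -0.09 to 0.34). The value of Atf6 was 0.06 without WT replicate 2, 0.22 without WT replicate 1, 0.17 without WT replicate 3 and 0.01 with the title digits as covariate. Eif2ak3, the PERK kinase, was at 11.7 to 13.0 CPM in HET and 10.9 to 13.4 in WT (-0.02, interval -0.20 to 0.16). Atf4 mRNA was at 61.4 to 79.8 CPM in HET and 62.7 to 74.9 in WT (-0.04, interval -0.23 to 0.15).

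ER chaperones and degradation factors lay slightly higher in HET than in WT, by less than the spread among the WT libraries. All 16 had a positive log2 fold change, where 48.5% of all genes did, but this count dropped to 9 with library-size scaling, to 9 when HET replicate 2 was left out and to 10 when WT replicate 2 was. The members share their libraries, so it is a description of 8 samples. Summed over the 16 genes, the branch was at 2281, 2394, 2307 and 2421 CPM in HET and at 2085, 2091, 2491 and 2160 CPM in WT. The 3 WT libraries other than replicate 3 lay below every HET library, and WT replicate 3 lay above every HET library. Hspa5 made up 27.7% to 29.5% of that sum in HET and 26.6% to 28.4% in WT.

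**Figure D3:**
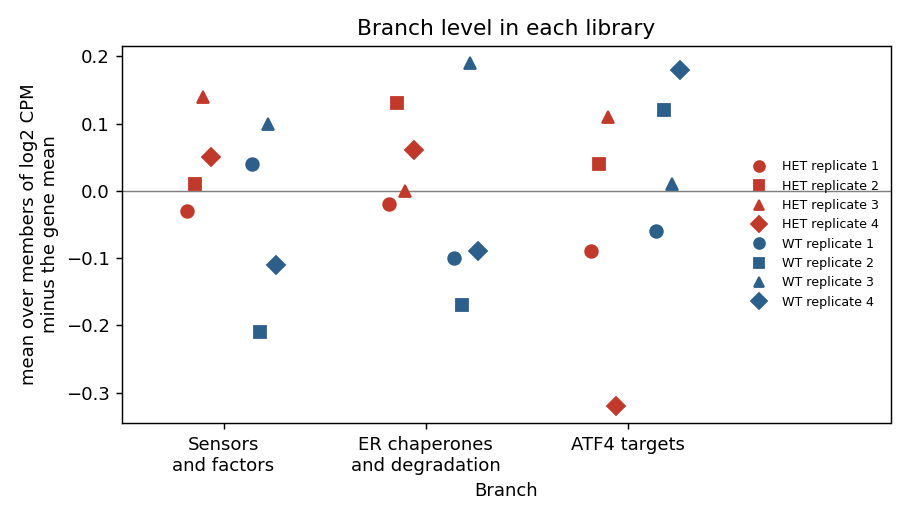
Mean over a branch's tested members of log2 CPM minus each gene's mean over all libraries (y axis), for the 3 branches (x axis), with 1 point per library, HET in red and WT in blue, and a marker shape for each replicate. In the chaperone branch the 4 HET points lie at -0.02 to 0.13, WT replicate 3 at 0.19 and the other WT points at -0.17 to -0.09; in the ATF4 target branch HET replicate 4 is lowest at -0.32.

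WT replicate 3 held the highest level of the 8 libraries for 9 of the 16 chaperone-branch genes, against 16.3% of all genes tested, and the highest of the 4 WT libraries for 14 of 16, against 28.8%. WT replicate 2 was the lowest of the 8 for 11 of 16, against 15.9%. Without WT replicate 3 the median log2 fold change of the branch was 0.141 (all genes -0.008), 15 of 16 values were positive (47.4% of all genes) and 7 had an unadjusted p under 0.05 in the higher direction (3.89% of all genes). Leaving out WT replicate 2 instead gave a median of 0.015 (all genes -0.002), 10 positive values of 16 (49.3% of all genes) and 0 with an unadjusted p under 0.05 in the higher direction (2.49% of all genes). None of the 16 passed adjustment without WT replicate 3, with Hspa5 lowest (adjusted p = 0.449, edgeR). For 6 of the 16 (Hspa5, Hsp90b1, Hyou1, Sdf2l1, Pdia6 and Creld2) all 4 HET libraries lay above the 3 remaining WT libraries, against 4.07% of all genes. This count was not made without WT replicate 2. As WT replicate 3 was the highest WT library for 14 of the 16, leaving it out lowers the WT means of those genes. The counts without it are therefore a description and no further check of the branch. The 6 markers of plasma cells, which are rich in ER, summed in that library to 18.1 CPM against 14.0 to 19.9 in the other 7, but the mean of their 4 tested members on the centred log2 scale was highest there, at 0.26 against -0.38 to 0.15. The part of the macrophage, lymphocyte, plasma cell and erythroid markers in these values was not tested.

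The chaperones proper were led by Hspa5 (GRCm38 chromosome 2, 34771970 to 34777547), at 673, 663, 657 and 710 CPM in HET and 568, 557, 707 and 581 CPM in WT. WT replicate 3 lay inside the HET range and the other 3 WT libraries below it. Its mean was 676 ± 24.0 CPM in HET and 603 ± 69.8 in WT (SD, n = 4 per group), and the log2 fold change was 0.16 (SE 0.074, 95% interval 0.00 to 0.33, adjusted p = 0.770 by edgeR), with 0.25 without WT replicate 3 and 0.13 without WT replicate 2. Hsp90b1, its partner in folding, was at 341 to 367 CPM in HET and at 317, 320, 377 and 336 CPM in WT (0.06, interval -0.07 to 0.20). Its value was 0.12 without WT replicate 3 and 0.04 without WT replicate 2. Of its exon bases 15.7% overlap other annotated genes. Hyou1, a large Hsp70-like exchange factor of BiP, was at 60.6, 69.4, 68.3 and 69.6 CPM in HET and 56.8, 44.9, 80.4 and 51.3 CPM in WT. Its WT values spanned more than its HET values, and the log2 fold change of 0.20 (SE 0.167) was 0.39 without WT replicate 3 (unadjusted p = 6.78e-04, adjusted p = 0.586 by edgeR) and 0.09 without WT replicate 2. Calr was at 298 to 321 CPM in HET and 278 to 335 in WT (0.01, interval -0.13 to 0.15), and this sign turned with library-size or upper-quartile scaling. Canx, its membrane-bound relative, was at 286, 268, 310 and 297 CPM in HET and 273, 252, 283 and 244 CPM in WT. The groups overlapped, and the log2 fold change was 0.14 (interval 0.00 to 0.28, exact two-sided permutation p = 0.114). It was 0.18 without WT replicate 3, 0.12 without WT replicate 2 and 0.08 with the title digits as covariate.

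Co-chaperones of BiP gave small differences. Dnajb9 (ERdj4), a J-domain protein that also restrains IRE1, was at 26.4, 27.2, 25.4 and 29.8 CPM in HET and 25.2, 23.3, 23.9 and 25.6 CPM in WT. A single pair of libraries crossed, HET replicate 3 and WT replicate 4, and the log2 fold change was 0.15 (SE 0.064, interval 0.01 to 0.29), with an exact two-sided permutation p of 0.0571. WT replicate 3 was not high for this gene, and the value without it was 0.14. Dnajb11 (ERdj3) was the steadiest member, at 49.2 to 52.6 CPM in HET and 47.7 to 52.1 in WT (0.03, interval -0.07 to 0.14). Dnajc3, an inhibitor of PERK that acts in the ER lumen, was at 46.9 to 51.7 and 43.2 to 52.2 CPM (0.05, interval -0.09 to 0.19), with 0.11 without WT replicate 3 and 0.02 without WT replicate 2. Sdf2l1, which binds with Dnajb11, was at 6.12, 8.27, 6.05 and 5.89 CPM in HET and 5.53, 4.48, 9.52 and 5.25 CPM in WT. WT replicate 3 and HET replicate 2 were both well above the rest, and the log2 fold change of 0.09 (interval -0.43 to 0.60) was 0.37 without WT replicate 3 and -0.04 without WT replicate 2. Sdf2l1 and Dnajb11 lie on the same chromosome as the Pkp2 deletion, 0.86 and 6.59 Mb from it, so an allele linked to the deletion and the deletion itself cannot be told apart for them.

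The disulfide isomerases, which form and rearrange disulfide bonds, were highest in HET replicate 2 and WT replicate 3 or in WT replicate 3 alone, and the genotypes overlapped. Pdia4 was at 31.2, 42.5, 32.6 and 35.4 CPM in HET and 32.7, 31.2, 41 and 31.8 CPM in WT, so HET replicate 2 and WT replicate 3 stood above the other 6 libraries. Pdia3 was at 139 to 174 CPM in HET and 129 to 184 in WT, with its highest values in the same pair of libraries. The log2 fold changes were 0.05 for Pdia4 (interval -0.20 to 0.31), 0.04 for Pdia3 (interval -0.20 to 0.28) and 0.02 for Pdia6 (interval -0.13 to 0.17), and those of Pdia3 and Pdia6 turned negative with library-size scaling. Without WT replicate 3 they were 0.15, 0.15 and 0.09, and without WT replicate 2 they were 0.01, -0.03 and -0.02. The secreted ER proteins Creld2 and Manf, both induced in ER stress, were at 13.6 to 17.4 and 32.9 to 38.0 CPM in HET and at 10.1 to 17.3 and 29.8 to 45.1 CPM in WT. Their log2 fold changes were 0.19 (interval -0.16 to 0.54) and 0.02 (interval -0.26 to 0.31), 0.35 and 0.18 without WT replicate 3, and 0.09 and -0.04 without WT replicate 2. That of Creld2 was 0.11 without HET replicate 2.

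Of the degradation factors, Edem1, which hands misfolded glycoproteins to degradation, had the same mean in both groups (17.0 ± 0.949 and 17.0 ± 1.21 CPM, log2 fold change 0.00, interval -0.15 to 0.15). Herpud1, the member with an element of each kind in its promoter, did not follow the chaperones. It was at 160, 202, 152 and 167 CPM in HET and 138, 197, 156 and 175 CPM in WT, highest in HET replicate 2 and WT replicate 2. The log2 fold change was 0.03 (interval -0.24 to 0.30). Within each set of samples that share title digits, the HET values of Herpud1 lay above the WT values (HET 160, 152 and 167 against WT 138 in one set, HET 202 against WT 156 and 175 in the other), while WT replicate 2 had digits of its own. The same order within both sets held for Dnajb9, Dnajb11, Creld2 and Chac1, and the reverse for Trib3 and Psat1. Each set holds a single library of a genotype, and how many of all genes show such an order was not computed. The order is therefore a description of these libraries and no result about the members. With the digits as covariate the log2 fold change of Herpud1 was 0.24 (unadjusted p = 0.00368, adjusted p = 0.966 by edgeR). The labels do not say what the digits mark.

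**Figure D4:**
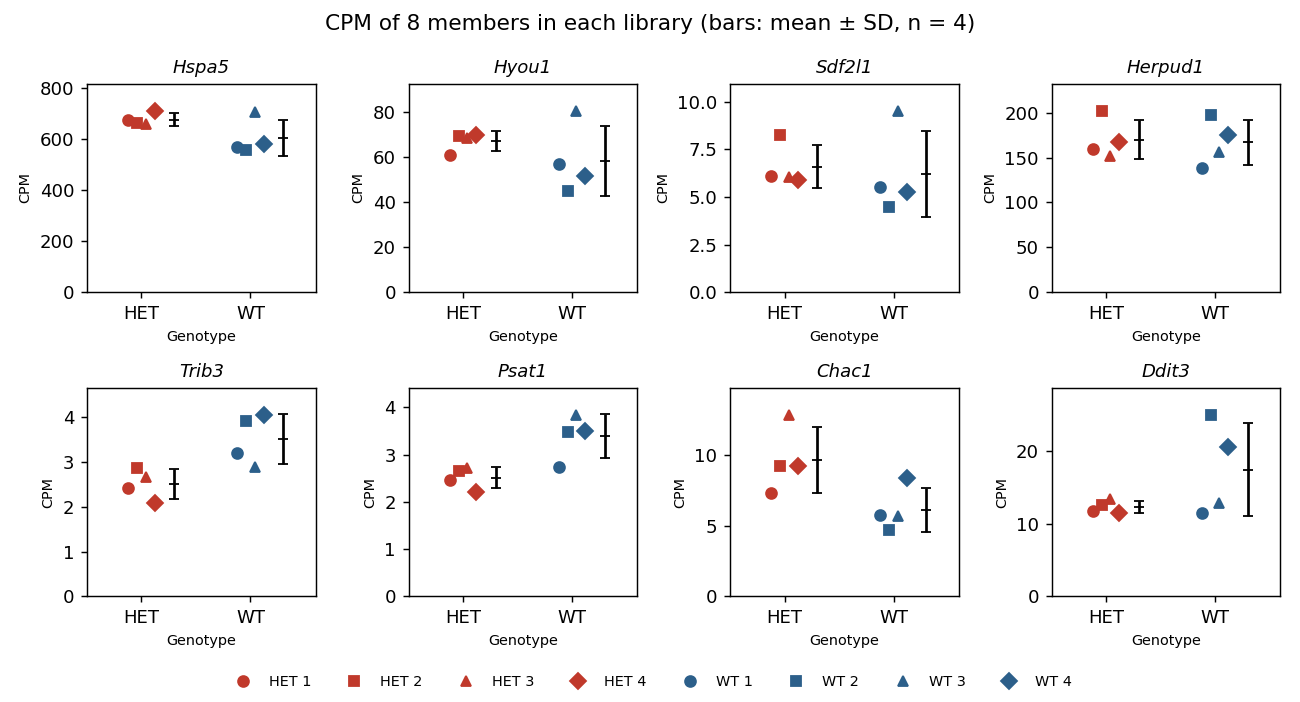
CPM of 8 members (panels) in each library, HET in red and WT in blue with a marker for each replicate, and black bars for mean ± SD of 4 libraries. Hspa5, Hyou1 and Sdf2l1 have WT replicate 3 within or above the HET range and the other WT libraries below it; Trib3 and Psat1 have every HET point below every WT point, by small gaps; Ddit3 is high in WT replicates 2 and 4 only.

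The ATF4 targets lay on both sides of 0. Of the 10 tested, 4 had a positive and 6 a negative log2 fold change. Chac1 had the higher mean in HET, Trib3, Psat1, Phgdh and Ddit3 the lower, and none passed. HET replicate 4 was the lowest of the 8 libraries for 6 of the 10 (Trib3, Asns, Psat1, Phgdh, Mthfd2 and Sesn2), against 10.5% of all genes tested. For 2 members the groups did not overlap, Trib3 and Psat1, both lower in HET, against 2.08% of all genes in that direction, and for 0 members in the other direction, against 1.70%.

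Trib3 (chromosome 2, 152337422 to 152344032), a pseudokinase induced by ATF4 and CHOP that feeds back on both, was at 2.41, 2.87, 2.67 and 2.08 CPM in HET and 3.20, 3.92, 2.90 and 4.05 CPM in WT, from 74 to 158 reads per library. Every HET library lay below every WT library, though HET replicate 2 and WT replicate 3 were 2.87 and 2.90. The log2 fold change was -0.49 (SE 0.155, 95% interval -0.83 to -0.15, adjusted p = 0.770 by edgeR), and the exact two-sided permutation p was 0.0286, the smallest that 4 against 4 samples allow. It ran from -0.57 to -0.41 as each library was left out and was -0.35 with the title digits as covariate. Psat1 (chromosome 19, 15904678 to 15947337), an aminotransferase of serine synthesis, was at 2.46, 2.65, 2.72 and 2.22 CPM in HET and 2.74, 3.47, 3.84 and 3.51 CPM in WT. The gap was again small, between 2.72 in HET replicate 3 and 2.74 in WT replicate 1, and the log2 fold change was -0.43 (SE 0.140, interval -0.74 to -0.12), -0.52 to -0.37 as each library was left out and -0.30 with the title digits as covariate. Leaving out WT replicate 3 cannot undo this order for Trib3 and Psat1, so it is no further check of them. No other member then had every HET library below the WT libraries, against 4.34% of all genes. Phgdh, the first enzyme of the same pathway, was at 0.450, 0.780, 0.426 and 0.309 CPM in HET and 0.889, 0.679, 0.701 and 0.717 CPM in WT. These rest on 11 to 37 reads per library, HET replicate 2 lay inside the WT range, and the log2 fold change was -0.61 (interval -1.24 to 0.01).

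Chac1 (chromosome 2, 119351229 to 119354381), which breaks down glutathione, was at 7.29, 9.20, 12.8 and 9.21 CPM in HET and 5.74, 4.65, 5.65 and 8.32 CPM in WT. HET replicate 3 was highest, and WT replicate 4 lay above HET replicate 1. The log2 fold change was 0.66 (SE 0.207, interval 0.20 to 1.12, adjusted p = 0.770 by edgeR, exact two-sided permutation p = 0.0571), and 0.49 without HET replicate 3. Ddit3 (chromosome 10, 127290774 to 127296288), which encodes the stress factor CHOP, was at 11.7, 12.6, 13.3 and 11.5 CPM in HET and 11.4, 24.9, 12.8 and 20.5 CPM in WT. WT replicates 2 and 4 held far more than the other 6 libraries, which lay within 11.4 to 13.3 CPM. The log2 fold change of -0.50 (SE 0.246, interval -1.07 to 0.07) was -0.63 without WT replicate 3, -0.28 without WT replicate 2 and -0.14 with the title digits as covariate. Of its exon bases 10.9% overlap other annotated models. On its own strand, 105 bases are shared with a second model named Ddit3, which the count table does not hold. The other 81 bases lie opposite Mars and Gm4189. Trib3 was also highest in these WT libraries, while Chac1 was lowest of all in WT replicate 2.

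For the remaining targets the genotypes overlapped. Asns, asparagine synthetase, varied 2.95-fold across libraries without regard to genotype, at 4.13, 2.12, 4.53 and 1.66 CPM in HET and 2.31, 4.88, 2.59 and 2.07 CPM in WT (0.08, interval -0.81 to 0.96). Mthfd2, of mitochondrial one-carbon metabolism, was at 1.46 to 2.62 CPM in HET and 2.03 to 2.82 in WT (-0.05, interval -0.50 to 0.39). Sesn2, a regulator of mTORC1, was at 4.72 to 6.40 CPM in HET and 5.38 to 5.56 in WT (0.02, interval -0.22 to 0.25). Atf5, a factor related to ATF4, was at 45.6 to 54.9 and 44.9 to 53.4 CPM (-0.04, interval -0.20 to 0.12), and Ppp1r15a (GADD34), which guides dephosphorylation of eIF2 alpha, at 29.6 to 41 and 26.8 to 38.6 CPM (0.06, interval -0.30 to 0.42). The value of Ppp1r15a was 0.15 without WT replicate 3 and -0.03 without WT replicate 2. Fgf21, a hormone that stressed cells release, had 0, 0, 0 and 3 reads in HET and 1, 3, 0 and 4 reads in WT. A count of 0 allows up to 3 reads, 0.073 to 0.093 CPM over these libraries and for counting error only, so no fold is given.

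Of the members, 10 pairs were compared across the 8 libraries on log2 CPM, with exact two-sided permutation tests and Benjamini-Hochberg adjustment over the 20 p-values of 10 pairs. Hspa5 and Hsp90b1 went together (Pearson r = 0.93, exact permutation p = 7.44e-04, adjusted p = 0.0149; Spearman rho = 0.86, exact permutation p = 0.0107, adjusted p = 0.107). The r was 0.82 without WT replicates 1 and 2, the libraries farthest from the median of Hspa5, and 0.95 with the genotype means removed. Both of these values keep WT replicate 3, which was high for both genes among the WT libraries (707 CPM for Hspa5 and 377 for Hsp90b1). The r without WT replicate 3 was not computed, so its part in this correlation was not tested. Hspa5 with Sdf2l1 gave r = 0.72 (exact permutation p = 0.0461, adjusted 0.288), rho = 0.71 (exact permutation p = 0.0576, adjusted 0.288) and r = 0.55 without WT replicates 1 and 2. The other 8 pairs had exact permutation p-values of 0.132 or more. Between targets of ATF4, r was 0.18 for Asns with Psat1, 0.21 for Asns with Mthfd2 and -0.47 for Trib3 with Chac1 (0.30 with the genotype means removed), and Atf4 mRNA with Asns gave 0.19. Across the branches Hspa5 with Asns gave r = -0.23.

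Other genes of these pathways, 120 in 8 lists, gave 0 calls among the 118 tested, beside 0.00686% of all genes tested. They had 76 positive and 42 negative log2 fold changes and a median of 0.032. Over all genes tested, 48.5% were positive and the median was -0.004. Counts of positive values depend on the scaling, as 32.7% of all genes were positive with library size alone. The 17 tested genes of other ER-associated degradation factors had 14 positive values (median 0.064), led by the lectin Erlec1 at 44.3 ± 1.11 CPM in HET and 40.5 ± 1.47 in WT (0.13, SE 0.047) and the ubiquitin-conjugating enzyme Ube2g2 (0.08, SE 0.040). The 18 other folding and oxidation genes had a median of 0.020, with Pdia5 at -0.34 (SE 0.133) and Dnajc1 at 0.13 (SE 0.056). The translocon and signal peptidase had 7 of 14 positive (median 0.005; Ssr1 0.10, SE 0.041; Ssr3 0.08, SE 0.052), and ATF6 processing and the CREB3 family 6 of 9 (median 0.009; Creb3 -0.09, SE 0.054; Nfya 0.10, SE 0.077). The eIF2 kinases and eIF2 factors had 9 of 14 positive (median 0.029; Eif2s2 0.10, SE 0.046; Eif2b5 0.08, SE 0.043). Other ATF4 and CHOP targets had 13 of 23 positive (median 0.056; Pck2 -0.25, SE 0.088; Gpt2 0.16, SE 0.055). Aminoacyl-tRNA synthetases had 7 of 12 positive (median 0.009), among them Eprs at 133 ± 5.47 CPM in HET and 118 ± 2.01 in WT (0.16, SE 0.046, unadjusted p = 0.00524, adjusted p = 0.770 by edgeR), with Yars at -0.07 (SE 0.052). The mitochondrial unfolded protein response had 8 of 11 positive (median 0.073; Hspa9 0.09, SE 0.042; Oma1 0.12, SE 0.058).

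In simulated counts with the means, depths and spread of these 8 libraries over 14567 genes, 0% of 200 genes changed by 1.2-fold were called, 51.0% of those changed by 1.5-fold and 81.5% of those changed by 2-fold. Of the unchanged genes, 0, 6 and 9 were called. Each gene was drawn on its own, so a shift that many genes share, as in WT replicate 3, was not simulated. In this setting a 1.2-fold change was not called gene by gene at this number of samples, and the chaperones' log2 fold changes were 0.20 or less.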

How the data were processed

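Poly(A)-selected RNA of ventricle was sequenced, 4 HET and 4 WT samples, with Trizol extraction and a stranded TruSeq kit per the labels' protocols. The deposited values are raw read counts per Ensembl gene. STAR 2.4.2a, HTSeq 0.6.1 and GRCm38/mm10 are named in the submitters' processing notes. Neither names an annotation release or strand setting (not given in the sources used here), so genes that overlap others are uncertain. Groups came from the genotype label, and replicates were numbered in accession order and pair nothing. The series title names the deleted base A, while the genotype label gives no deletion and the table's name gives C, and the title was followed. Symbols came from a table of gene names by Ensembl identifier, and coordinates from GENCODE M21.

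Counts of 38293 genes (36345 with a symbol; the other 1948 held 0.143% of counts) were filtered with filterByExpr, scaled by TMM and compared over all 14567 genes kept with edgeR 4.0.16 (quasi-likelihood test, robust, no covariate, R 4.3.3), with Benjamini-Hochberg adjustment at 0.05. Levels are CPM on TMM-scaled library sizes. Lengths are the union of exons in GENCODE M21, which may not be the annotation counted. No library was a repeat of another: in each of the 28 pairs, genes with 100 or more counts gave an average chi-square of at least 14.0, where sampling noise gives about 1. Other settings tried were scaling by RLE, by upper quartile or by library size alone, no filter, a filter of 1 CPM in 4 samples, DESeq2 1.42.0, limma-voom (limma 3.58.1), the title digits as covariate and each library left out. The edgeR fit was tested on simulated data.

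The members and lists were chosen with earlier results of these data known. Named genes are every member, Pkp2, and in each other pathway list the genes past the threshold (at most 4) or otherwise the 2 of smallest p. Lists are described by counts and medians, with no test. All 8 columns were used.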

Additional observations from a re-analysis of the deposited data

Results flagged for a closer look

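A library was examined for standing apart from the other 3 of its group when its gap to the nearest of them exceeded Dixon's 95% critical share of the group's range. Over 62 groups (31 members in HET and in WT) 5 values did so, where chance gives about 1 in 20. In WT replicate 3 they were Hspa5, at 707 CPM against 557 to 581 in the other WT libraries, and Pdia4, at 41 against 31.2 to 32.7. In HET replicate 2 it was Sdf2l1, at 8.27 CPM against 5.89 to 6.12. In HET replicate 1 they were low values, Xbp1 at 60.7 CPM against 69.8 to 71.4 and Hyou1 at 60.6 against 68.3 to 69.6.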

How the results depend on the processing

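No member tested passed under any of the 16 alternatives (8 of processing, 8 that leave out a library); the smallest adjusted p of a member was 0.280, for Chac1 with DESeq2. Of the 31 members, 15 kept their sign in all 16, 15 did not, and Phgdh kept it in the 15 alternatives that tested it (the 1 CPM filter left it out). Over all genes, DESeq2 called 7 higher and 6 lower, the fit with no filter called 2 lower, and leave-one-out fits called 1 to 3 lower (3 without HET replicate 3). With library size alone 9 chaperone-branch genes were positive, and log2 fold changes were -0.03 for Calr, Pdia6 and Sesn2, -0.01 for Dnajb11, Herpud1 and Pdia3, -0.04 for Edem1 and -0.02 for Manf. With upper-quartile scaling Calr and Edem1 were at -0.01, with the 1 CPM filter Edem1 was at -0.003, and with limma-voom Sesn2 was at -0.02. With the title digits as covariate Atf4 was at 0.001 and the median of the sensors and factors at 0.01. The cause of these shifts was not tested. Leaving out each library in turn, positive values numbered 9 to 16 for the chaperone branch and 2 to 5 for the ATF4 targets. The log2 fold changes then ran from -0.16 to 0.43 for Asns, -0.12 to 0.01 for Atf4, -0.03 to 0.05 for Calr, -0.04 to 0.05 for Edem1, -0.07 to 0.03 for Eif2ak3, -0.06 to 0.12 for Herpud1, -0.04 to 0.18 for Manf and -0.14 to 0.11 for Mthfd2. They ran from -0.03 to 0.15 for Pdia3, -0.05 to 0.15 for Pdia4, -0.02 to 0.09 for Pdia6, -0.05 to 0.15 for Ppp1r15a, -0.04 to 0.37 for Sdf2l1 and -0.06 to 0.09 for Sesn2. Phgdh (11 to 37 reads per library) and Fgf21 were limited by depth. No paired analysis was possible because the replicate numbers were given in accession order and pair no samples.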
